A study of Arabidopsis thaliana with 16 samples.

Results

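The WRKY transcription factor genes of Arabidopsis are described here through the repressive histone mark H3K27me3. Members were the genes on chromosomes 1 to 5 of the TAIR10 annotation whose symbol is WRKY followed only by digits, which gave 67 of 27444 protein-coding genes, all of them protein-coding. Chromosomes 1, 2, 3, 4 and 5 held 15, 15, 6, 16 and 15 of them. A further 5 genes, ABO3, ZAP1, TTG2, TTR1 and RRS1, carry a WRKY number only as a synonym and were not counted as members. A gene counted as marked in a library where H3K27me3 peaks covered 50% or more of its body, from the annotated start to the annotated end.

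H3K27me3 was profiled by ChIP-seq in 12 libraries. They came from *Atsdr4l-4*, *Atsdr4l-5* and Col-0 plants sampled 3 or 1 days after imbibition (DAI), and each genotype had 2 replicates per time point. Both alleles are segmental deletions in AtSDR4L made in the Col-0 background. AtSDR4L is a co-repressor that acts in the passage from seed to seedling. *Atsdr4l-4* was segregated from a biallelic mutant, and *Atsdr4l-5* was a bulk of backcrossed lines without the nuclease transgene. All seedlings grew on medium with 1% sucrose. Each library pooled whole germinating seeds or seedlings, so that a mark present in more cells and a mark denser in the same cells cannot be told apart. Nothing in the labels says that replicates came from separate cultures, so p-values measure the spread between these libraries, which may be technical.

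WRKY proteins carry a DNA-binding domain with a conserved heptad and a zinc finger, and most bind the W-box, a short promoter element with the core TTGAC. The family is known above all for defence against pathogens, where many members are switched on by salicylic acid or by pattern receptors, and also for senescence, phosphate starvation, abscisic acid (ABA) responses and the development of seed, pollen and stem. Many WRKY promoters hold W-boxes themselves. H3K27me3 is laid down by Polycomb Repressive Complex 2 and typically covers the whole body of a silent gene. It was the only measurement, so transcript levels of the members were not analysed here.

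The libraries held 6582 to 7068 peaks at 3 DAI and 6474 to 6800 at 1 DAI on chromosomes 1 to 5, covering 24.9 to 28.2 Mb at 3 DAI and 21.3 to 25.3 Mb at 1 DAI. Sequencing depth is unknown, as peak lists carry no counts, and precision is limited by how many libraries there are. Over all protein-coding genes, 24.7 to 26.4% were marked at 3 DAI and 20.3 to 22.2% at 1 DAI. The median fold enrichment of genes marked in all 12 libraries was 2.504 to 2.904 at 3 DAI and 2.204 to 2.492 at 1 DAI, so that these fold values were higher in all libraries of 3 DAI, while the covered length overlapped between the times.

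H3K27me3 covered more than 1 in 2 WRKY genes in every library. At 3 DAI 39 and 38 of the 67 were marked in *Atsdr4l-4*, 40 and 40 in *Atsdr4l-5*, and 39 and 39 in Col-0. At 1 DAI the numbers were 39 and 38 for *Atsdr4l-4*, 38 and 39 for *Atsdr4l-5*, and 37 and 38 for Col-0. This is 56.7 to 59.7% of the family at 3 DAI and 55.2 to 58.2% at 1 DAI. In 2 other large families of transcription factors, set beside it with no test, 70.4 to 72.2% of 115 MYB genes and 51.9 to 54.4% of 79 NAC genes were marked at 3 DAI, and 66.1 to 68.7% and 46.8 to 51.9% at 1 DAI.

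**Figure D1:**
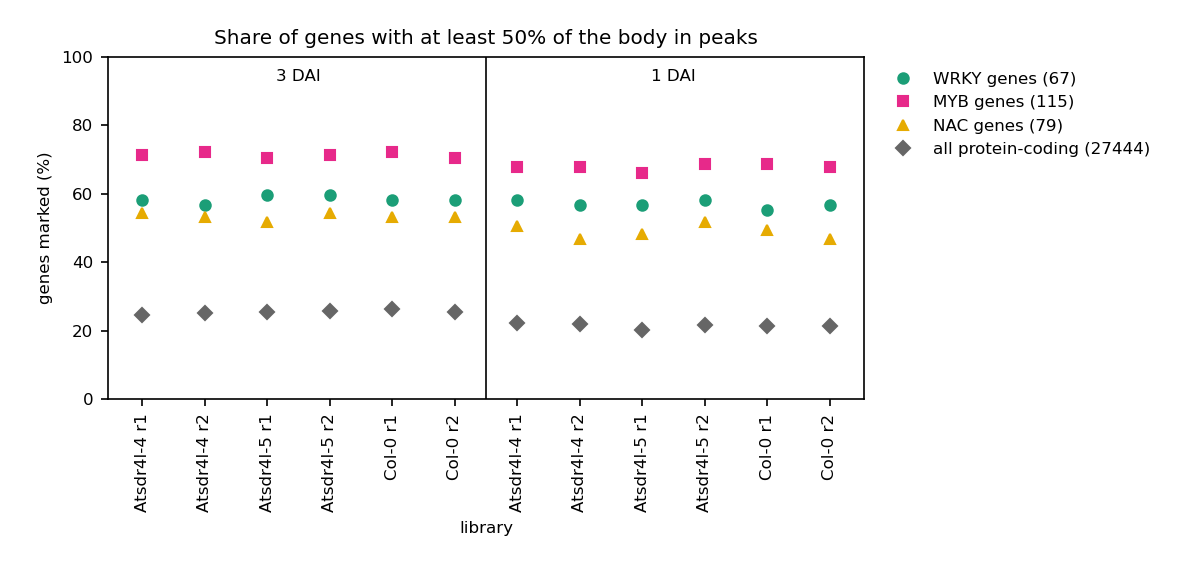
Share of genes marked in each library (y axis, percent of genes with 50% or more of the body in peaks), for WRKY, MYB, NAC and all protein-coding genes, with the 6 libraries of 3 DAI left of the line and the 6 of 1 DAI right of it. The WRKY points sit between 55.2 and 59.7% in all libraries, above the 20.3 to 26.4% of all genes.

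The state of a WRKY gene was almost the same in all libraries. Of the 67 genes, 35 (52.2%) were marked in all 12 libraries, 26 (38.8%) in none, and 6 (8.96%) in some. Over all protein-coding genes these shares were 17.8%, 70.6% and 11.6%. Coverage was close to all or nothing in most members. Of the 67, 25 (37.3%) lay wholly inside peaks in all 12 libraries and 25 (37.3%) had no base in any. The shares over all protein-coding genes were 10.1% and 62.7%, so all-or-nothing coverage was not particular to WRKY genes. Among genes with a base in a peak in at least 1 library, 83.3% of 42 WRKY genes and 47.8% of 10227 protein-coding genes were marked in all 12. For MYB and NAC genes with such a base the shares were 76.8% of 95 and 61.4% of 57. Of the whole families, 63.5% of MYB and 44.3% of NAC genes were marked in all 12. The members nearest the 50% threshold by their mean over the 12 libraries were *WRKY66* at 31.4% and *WRKY74* at 28.0% below it, and *WRKY40* at 66.5%, *WRKY27* at 71.0% and *WRKY43* at 71.3% above it.

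**Figure D2:**
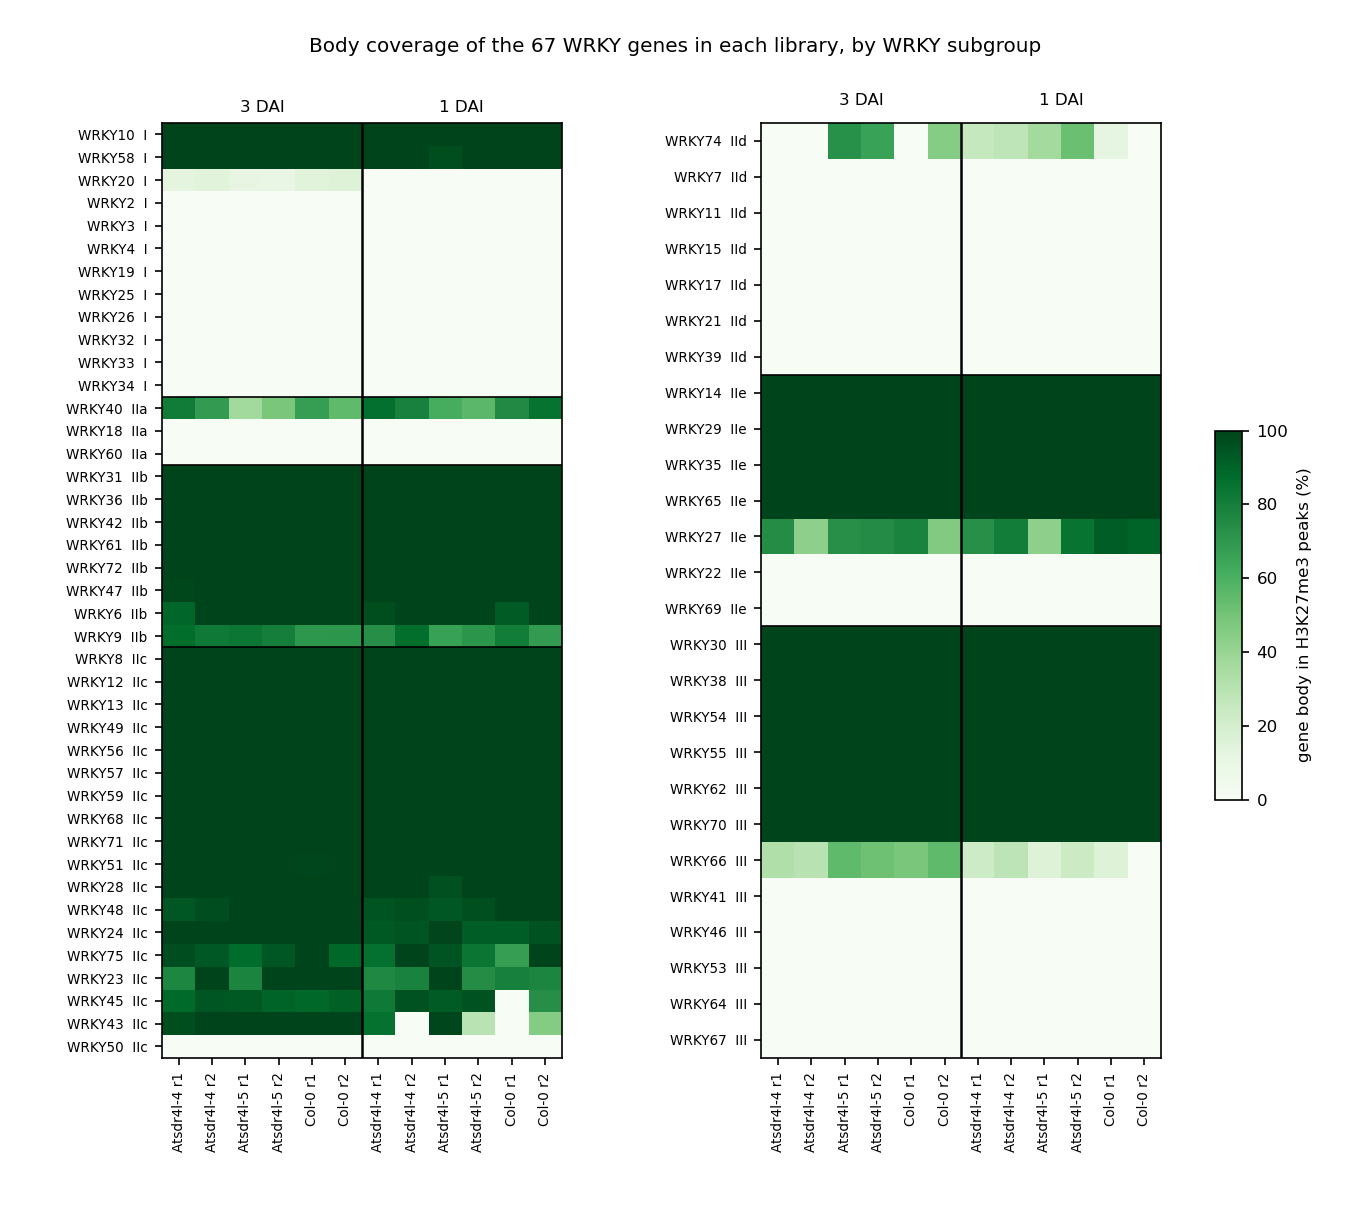
Percent of the gene body in H3K27me3 peaks (colour, 0 to 100%) for the 67 WRKY genes (rows, by subgroup, given after each name) in the 12 libraries (columns, r1 and r2 being replicates, 3 DAI left and 1 DAI right of the black line). Rows are dark or empty across all columns except in a few genes, and all 8 rows of subgroup IIb are dark where 6 of 7 rows of IId are empty.

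The marked and unmarked members fell into different branches of the family. WRKY genes are grouped by their protein, with 2 WRKY domains in most of group I, 1 domain with a zinc finger of the C2H2 type in group II, which has the branches IIa to IIe, and 1 domain with a C2HC finger in group III. The assignment of members to branches follows textbook knowledge and was written after their coverage had been seen, so the counts are a description. All 8 genes of IIb and 15 of 18 genes of IIc were marked in all 12 libraries. No gene of IId was marked in all 12, with 6 of 7 unmarked throughout, and likewise none of the 3 genes of IIa. In group I, 10 of 12 genes were unmarked throughout and only *WRKY10* and *WRKY58* were marked. Group III divided into 6 marked and 5 unmarked genes and *WRKY66*, and IIe into 4 marked and 2 unmarked genes and *WRKY27*.

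Counts made from the protein sequence alone, translated from the genome, set apart only the members with 2 heptads. They do not tell the branches IIa to IIe from each other. Of 10 members with 2 heptads, 9 were marked in no library and 1 in all. Of 43 members with 1 heptad and a C2H2 finger, 27 were marked in all 12 libraries, 11 in none and 5 in some. Of 12 members with 1 heptad and a C2HC finger, 6 were marked in all, 5 in none and 1 in some. The remaining pair, *WRKY19* and *WRKY36*, matched neither finger pattern. Median protein length was 310 residues in the marked and 324.5 in the unmarked members, with a median of 3 coding exons in each.

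Some coding sequences of the heptad were shared by members in both states, and others were not. The 21 bases that encode it are given for the 3 sequences that are shared by 3 or more genes and occur in genes marked in all 12 libraries and in none, with the sixth codon, the place of the variant heptads, in capitals. Coordinates are those of TAIR10.1, and the sequences are RefSeq's.
WRKY62 (chr5:351565-351585, minus strand): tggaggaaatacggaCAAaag
WRKY2 (chr5:22781724-22781744, plus strand): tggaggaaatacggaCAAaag
WRKY18 (chr4:15384316-15384336, plus strand): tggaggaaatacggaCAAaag
WRKY74 (chr5:10678052-10678072, minus strand): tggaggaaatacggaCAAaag
WRKY31 (chr4:11692187-11692207, minus strand): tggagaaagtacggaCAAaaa
WRKY33 (chr2:16109358-16109378, plus strand): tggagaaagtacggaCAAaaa
WRKY69 (chr3:21715503-21715523, plus strand): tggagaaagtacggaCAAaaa
WRKY10 (chr1:20774651-20774671, minus strand): tggagaaaatacggtCAGaaa
WRKY47 (chr4:747056-747076, plus strand): tggagaaaatacggtCAGaaa
WRKY25 (chr2:12904361-12904381, minus strand): tggagaaaatacggtCAGaaa
Of the 4 genes with the first of these sequences, *WRKY62* was marked in all 12 libraries, *WRKY2* and *WRKY18* in none and *WRKY74* in 3. Of the 3 genes with the next, *WRKY31* was marked in all 12 and *WRKY33* and *WRKY69* in none, and of the last 3, *WRKY10* and *WRKY47* were marked in all 12 and *WRKY25* in none. Another sequence was shared by *WRKY29* (all 12) and *WRKY32* (none), and a further one by *WRKY72* (all 12) and *WRKY34* (none). The remaining shared sequences joined no gene marked in all 12 libraries with a gene marked in none. They were shared by *WRKY14*, *WRKY27* and *WRKY55*, by *WRKY54*, *WRKY66* and *WRKY70*, and by *WRKY36* and *WRKY38*, each marked in some or all libraries. Those of *WRKY7* and *WRKY53* and of *WRKY64* and *WRKY67* lay in genes marked in none.

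In 3 members of IIc the sixth codon reads AAG in place of CAA or CAG, which changes the amino acid at a position known to affect W-box binding. These variant heptads also occurred in both states.
WRKY50 (chr5:9147579-9147599, minus strand): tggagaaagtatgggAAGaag
WRKY51 (chr5:25908864-25908884, plus strand): tggaggaagtatggcAAGaaa
WRKY59 (chr2:9335762-9335782, minus strand): tggaggaaatacggaAAGaag
*WRKY50* had no base in a peak in any library and was the only gene of IIc unmarked in all 12, whereas *WRKY51* and *WRKY59* were marked in all 12. *WRKY50* and *WRKY51* both dampen jasmonate signalling when salicylic acid is high.

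The peaks over WRKY genes were wide. In each library the median peak over a marked member measured 6710 to 8592 bp at 3 DAI and 6566 to 7983 bp at 1 DAI, against 4990 to 6257 bp and 4711 to 5587 bp for all marked genes. Of the members marked in a library, 17 to 22 were the only gene with 50% or more of its body in their peak. *WRKY31* on chromosome 4 lay in the widest of these peaks in Col-0, 25477 and 25603 bp at 3 DAI and 24729 and 24713 bp at 1 DAI. The neighbouring genes *WRKY54* and *WRKY55* lay in 1 shared peak of 10595 bp at 3 DAI and 10535 bp at 1 DAI (medians), so that their values are not independent. Gene length did not set the states far apart, with medians of 2249 bp in marked and 2124 bp in unmarked members. The 4890 protein-coding genes marked in all 12 libraries were shorter, with a median of 1523 bp. The part of gene length in the wider peaks over WRKY genes was not tested.

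**Figure D3:**
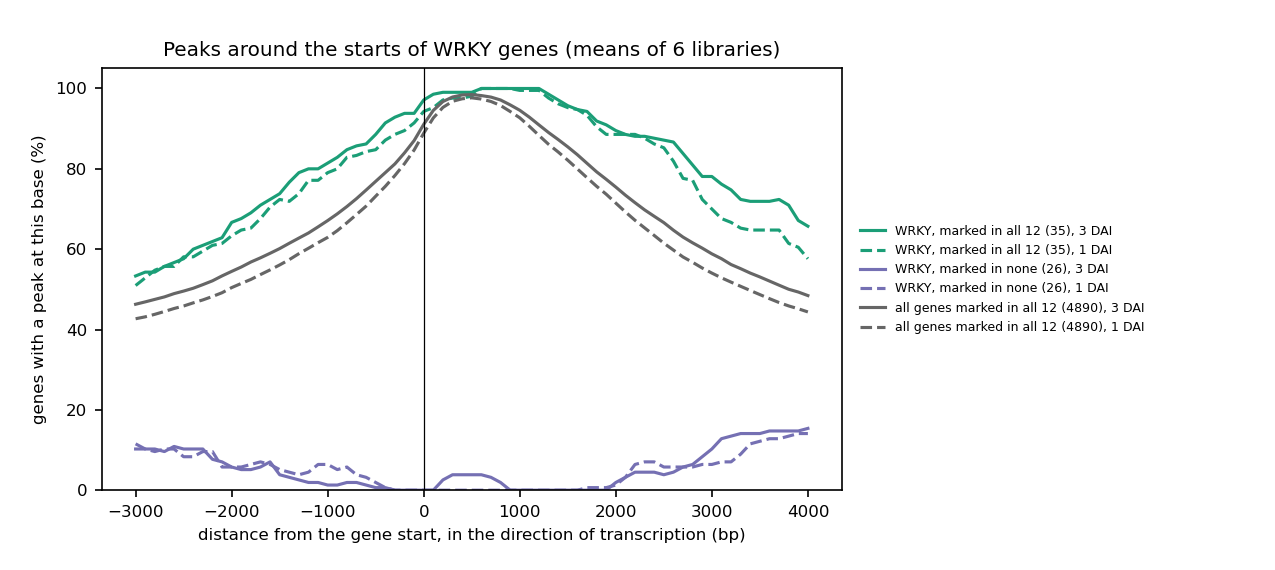
Share of genes with a peak at each distance from the annotated gene start (x axis in bp, in the direction of transcription; y axis in percent), for the 35 WRKY genes marked in all 12 libraries, the 26 marked in none and all 4890 genes marked in all 12; solid lines are means over the 6 libraries of 3 DAI and dashed lines over those of 1 DAI. At 1000 bp before the start the marked WRKY genes stood at 81.4% at 3 DAI and 79.0% at 1 DAI, above the 67.1% and 62.9% of all such genes.

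Peaks over marked members reached beyond the gene. The first kb upstream was covered to 50% or more in all 12 libraries in 27 of the 35 marked members, against 2940 of 4890 among all genes marked throughout. At 3000 bp before the start a peak was still present in 53.3% of the 35 at 3 DAI and 51.0% at 1 DAI, against 46.3% and 42.7% of the 4890. Of the 26 unmarked members, 23 had no upstream base in a peak in any library. The 3 others were *WRKY2*, *WRKY53* and *WRKY67*. *WRKY53*, an early regulator of leaf senescence, had none of its upstream kb in a peak in any library of 3 DAI. At 1 DAI it had 60.5 and 25.7% for *Atsdr4l-4*, 0 and 48.4% for *Atsdr4l-5*, and 51.3 and 32.6% for Col-0, while its body held no peak base at either time. *WRKY6* showed the opposite order upstream, with 77.3 to 100% at 3 DAI and 0 to 85.9% at 1 DAI. These upstream values were singled out after they were seen and were not tested.

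The promoters of marked and unmarked members were compared by short motifs in the window from 250 bp before to 50 bp after the start, read on both strands. The W-box (TTGACC or TTGACT) was present in 37.3% of WRKY promoters, in 11 of the 35 marked in all 12 libraries and 13 of the 26 marked in none, and in 32.4% of all 27443 promoters. The RY element (CATGCA) stood in 10.4% of WRKY promoters and 9.72% of all, and the G-box (CACGTG) in 8.96% and 7.68%. Among all genes marked in all 12 libraries the RY share was 15.4%, against 8.57% in the marked WRKY genes. The telobox (AAACCCTA) stood in 2.99% of WRKY promoters and 6.22% of all, and the GAGA repeat (GAGAGAGA) in 7.46% and 8.38%. These counts are a description, and a match is not a bound site.

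A pair of promoters shows W-boxes in both states, and another pair belongs to genes that varied between libraries. Matches to the motifs above are in capitals, on either strand.
WRKY30 (chr5:8154661-8154960, minus strand): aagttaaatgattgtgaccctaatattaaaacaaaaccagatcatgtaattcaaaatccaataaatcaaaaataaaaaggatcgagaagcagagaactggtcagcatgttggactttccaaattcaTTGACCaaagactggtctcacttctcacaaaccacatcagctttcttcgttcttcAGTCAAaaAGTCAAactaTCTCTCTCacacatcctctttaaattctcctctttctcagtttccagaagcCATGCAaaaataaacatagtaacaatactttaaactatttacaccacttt
WRKY33 (chr2:16107985-16108284, plus strand): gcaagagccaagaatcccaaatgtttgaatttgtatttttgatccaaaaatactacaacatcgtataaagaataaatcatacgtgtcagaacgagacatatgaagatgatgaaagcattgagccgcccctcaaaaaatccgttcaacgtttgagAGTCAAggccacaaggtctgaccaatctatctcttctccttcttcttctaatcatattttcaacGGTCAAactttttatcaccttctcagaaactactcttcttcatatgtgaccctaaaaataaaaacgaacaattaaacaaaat
WRKY43 (chr2:18956962-18957261, plus strand): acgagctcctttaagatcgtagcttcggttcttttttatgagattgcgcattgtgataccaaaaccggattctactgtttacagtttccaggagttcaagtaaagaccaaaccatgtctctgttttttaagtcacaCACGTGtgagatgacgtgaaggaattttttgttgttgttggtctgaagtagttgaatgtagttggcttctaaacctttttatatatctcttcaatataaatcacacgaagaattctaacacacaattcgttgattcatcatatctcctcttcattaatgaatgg
WRKY40 (chr1:30383311-30383610, plus strand): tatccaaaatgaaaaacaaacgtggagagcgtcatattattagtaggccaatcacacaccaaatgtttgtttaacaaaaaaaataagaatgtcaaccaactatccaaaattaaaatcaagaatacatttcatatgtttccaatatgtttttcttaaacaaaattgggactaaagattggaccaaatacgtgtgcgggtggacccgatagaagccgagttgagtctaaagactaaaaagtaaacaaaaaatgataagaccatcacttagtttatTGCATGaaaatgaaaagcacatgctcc
The *WRKY30* promoter, in a gene marked in all 12 libraries, has 3 W-boxes (TTGACC once and AGTCAA, the reverse complement of TTGACT, at the other places), a GAGA repeat on the other strand and an RY element. The *WRKY33* promoter, in a gene with no peak in any library, has 2 W-boxes on the other strand. The *WRKY43* promoter has a G-box and no W-box, and the *WRKY40* promoter has an RY element after the start and no W-box.

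From 1 to 3 DAI few members changed and none was switched on throughout. The mean number of marked members was 39.2 ± 0.753 at 3 DAI and 38.2 ± 0.753 at 1 DAI (SD, n = 6 libraries each), a difference within genotypes of 1.0 gene with a replicate SD of 0.577. No WRKY gene was marked in all 6 libraries of 3 DAI and unmarked in all 6 of 1 DAI, against 1.17% of all genes. More of the body lay in peaks in all 6 libraries of 3 DAI than in all 6 of 1 DAI in 3 members, *WRKY20*, *WRKY24* and *WRKY66* (4.48%, against 4.93% of all genes). Less lay in peaks in none, against 0.328%. The share of WRKY genes that gained coverage was thus near that of all genes, and the median difference was 0 percentage points in both.

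Per gene, time labels were permuted within each genotype (exact permutation test, two-sided, smallest possible p 0.00926). With Benjamini-Hochberg adjustment over all 27444 genes no gene passed 0.05, the smallest adjusted p being 0.144. At an unadjusted p under 0.05 there were 2748 genes, 5 of them WRKY genes: *WRKY43*, *WRKY66*, *WRKY20* and *WRKY24* were higher and *WRKY40* lower at 3 DAI. With limma, run on the 7457 genes whose coverage varied, the same 5 of 17 varying members passed an adjusted p of 0.05, 4 higher and 1 lower, where 30.1% of varying genes were higher and 2.95% lower.

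*WRKY43* (AT2G46130, chromosome 2, 18957212 to 18957925, plus strand) is a short gene of 714 bp in IIc that modulates seed lipid composition and ABA sensitivity in germination. Its body was covered to 97.2 and 100% for *Atsdr4l-4*, 100 and 100% for *Atsdr4l-5*, and 100 and 100% for Col-0 at 3 DAI. The 1 DAI libraries had 85.0 and 0% for *Atsdr4l-4*, 98.9 and 29.6% for *Atsdr4l-5*, and 0 and 45.4% for Col-0. The 3 DAI libraries were uniform and the 1 DAI libraries ranged from empty to nearly full, also between replicates, and they overlapped in 1 library, *Atsdr4l-5* replicate 1. The mean difference was 56.4 percentage points (exact permutation p = 0.00926; limma adjusted p = 0.032). The peak over it measured 1244 to 7438 bp at 3 DAI and 544 to 1100 bp in the 4 libraries of 1 DAI that had one. Its fold enrichment was 1.63 to 1.95 at 3 DAI and 1.40 to 1.47 in those 4 libraries, so that it held no base when peaks below 2-fold enrichment were left out.

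*WRKY66* (AT1G80590, chromosome 1, 30296166 to 30297224, minus strand), in group III, was covered to 32.6 and 29.9% for *Atsdr4l-4*, 54.8 and 51.6% for *Atsdr4l-5*, and 48.3 and 54.8% for Col-0 at 3 DAI. At 1 DAI the values were 22.6 and 28.2% for *Atsdr4l-4*, 15.3 and 22.7% for *Atsdr4l-5*, and 15.5 and 0% for Col-0. The time points did not overlap, and the smallest step was in *Atsdr4l-4*. The mean difference was 28.0 percentage points (exact permutation p = 0.00926), and 45.3 when weak peaks were left out, either those with -log10 q under 5 or those under 2-fold. The mark lay in the second part of the gene, where 59.9 to 100% of the 3' part was covered at 3 DAI and 0 to 56.5% at 1 DAI, against at most 9.62% and 0% of the 5' part. The peak over its 3' end measured 3424 to 3725 bp at 3 DAI and 263 to 378 bp in the 5 libraries of 1 DAI that had one.

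*WRKY20* (AT4G26640, chromosome 4, 13437005 to 13441884, minus strand) was the only unmarked member with any base in a peak. Its coverage was 12.7 and 14.0% for *Atsdr4l-4*, 11.1 and 9.24% for *Atsdr4l-5*, and 14.3 and 15.3% for Col-0 at 3 DAI, and 0% in all 6 libraries of 1 DAI. All 6 libraries of 3 DAI thus had a peak of 451 to 745 bp in the 5' part of the gene, and no library came near the threshold for a marked gene. With peaks of at least 2-fold enrichment it had no base in a peak, and with -log10 q of at least 5 the difference was 10.7 percentage points (exact permutation p = 0.0278). *WRKY24* (AT5G41570, chromosome 5, 16624157 to 16625977, plus strand) was covered to 100% in all 6 libraries of 3 DAI and to 92.0 to 99.3% at 1 DAI, with a mean difference of 5.48 percentage points.

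*WRKY40* (AT1G80840, chromosome 1, 30383561 to 30385499, plus strand) represses ABA-responsive genes together with *WRKY18* and *WRKY60* and is also a target of pattern-triggered defence. It was the only member of IIa with a mark. Its body was covered to 80.9 and 68.6% for *Atsdr4l-4*, 36.9 and 48.3% for *Atsdr4l-5*, and 67.2 and 54.8% for Col-0 at 3 DAI. At 1 DAI coverage was 85.6 and 78.8% for *Atsdr4l-4*, 61.1 and 56.0% for *Atsdr4l-5*, and 75.4 and 84.6% for Col-0. In each genotype the mean was lower at 3 DAI, and at both times the *Atsdr4l-5* values included the lowest and the *Atsdr4l-4* values the highest. The mean difference between times was -14.1 percentage points (exact permutation p = 0.0185; limma adjusted p = 0.0237). Its fold enrichment was low, 1.52 to 1.64 at 3 DAI and 1.52 to 2.36 at 1 DAI. Of its windows of 31 bases, 90.3% occur once in the 5 chromosomes, the lowest share of any member, and the part of repeated sequence in these values was not tested.

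**Figure D4:**
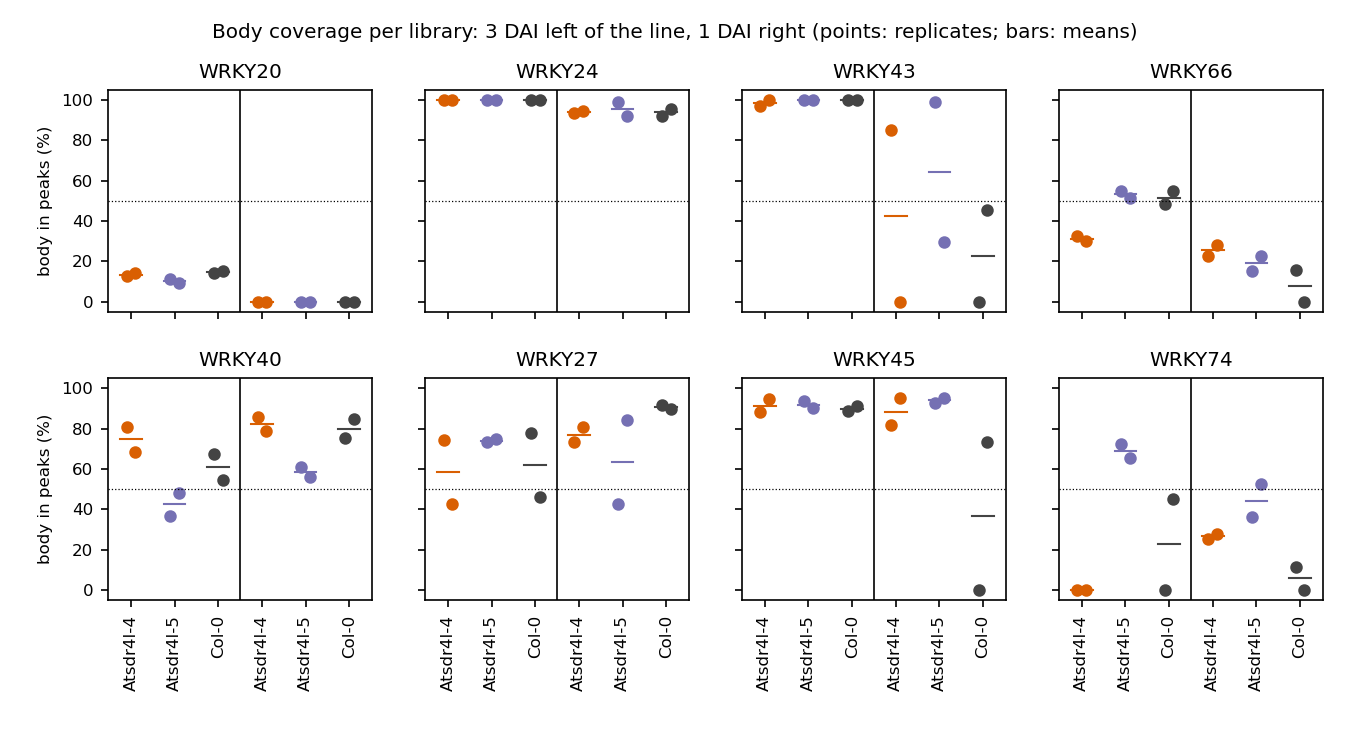
Percent of the gene body in peaks for 8 WRKY genes that varied between libraries, with 3 DAI left and 1 DAI right of the line in each panel, points for the 2 replicates of a genotype, short bars for their mean and a dotted line at the 50% threshold. *WRKY20*, *WRKY24* and *WRKY66* separate the time points, *WRKY40* lies lower at 3 DAI, and *WRKY74* divides the alleles at 3 DAI.

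No WRKY gene passed a test of *Atsdr4l* against Col-0 after adjustment. Genotype labels were permuted within time points (exact permutation test, two-sided, smallest possible p 0.00444). No gene of 27444 passed an adjusted p of 0.05, with 508 genes at an unadjusted p under 0.05. *WRKY45* (p = 0.0222) and *WRKY48* (p = 0.04) were the only 2 WRKY genes among these by the exact permutation test. With limma no WRKY gene and 3 genes in all passed. Within a time point there are 15 splits of 2 against 4 libraries and the smallest possible p is 0.0667, so such differences are given as values.

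The number of marked members did not set the genotypes apart. At 3 DAI it was 39.3 ± 0.957 in *Atsdr4l* (SD, n = 4 libraries) and 39 in both Col-0 libraries. At 1 DAI it was 38.5 ± 0.577 in *Atsdr4l* (SD, n = 4) and 37.5 ± 0.707 in Col-0 (SD, n = 2). At 3 DAI coverage was above both Col-0 libraries in all 4 *Atsdr4l* libraries in *WRKY9* alone (0.794% of all genes) and below both in *WRKY20* alone (2.98% of all genes). At 1 DAI it was above in *WRKY45* and *WRKY74* (1.76% of all genes) and below in *WRKY27* and *WRKY48* (1.48% of all genes). These counts of 1 or 2 genes are 1.49% of the family in each direction at 3 DAI and 2.99% at 1 DAI.

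*WRKY45*, an activator of phosphate uptake through PHT1;1, was covered to 88.2 to 94.5% in *Atsdr4l* and 88.6 and 91.2% in Col-0 at 3 DAI. At 1 DAI it was covered to 81.7 and 95.1% for *Atsdr4l-4*, 92.7 and 95.3% for *Atsdr4l-5*, and 0 and 73.5% for Col-0. The difference at 1 DAI therefore rested largely on Col-0 replicate 1, where the gene had no peak. *WRKY74*, in IId, was covered to 0 and 0% for *Atsdr4l-4*, 72.4 and 65.7% for *Atsdr4l-5*, and 0 and 45.1% for Col-0 at 3 DAI. At 1 DAI the values were 25.3 and 27.8% for *Atsdr4l-4*, 36.2 and 52.3% for *Atsdr4l-5*, and 11.4 and 0% for Col-0. The alleles went in opposite directions between the times, a difference that was not tested. The peaks over *WRKY74* were weak, with a mean fold enrichment of 1.54 at 3 DAI and 1.52 at 1 DAI.

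*WRKY27*, which affects bacterial wilt symptoms, was covered to 74.5 and 42.8% for *Atsdr4l-4*, 73.4 and 74.6% for *Atsdr4l-5*, and 77.8 and 45.9% for Col-0 at 3 DAI. The 1 DAI libraries had 73.2 and 80.8% for *Atsdr4l-4*, 42.7 and 84.4% for *Atsdr4l-5*, and 91.9 and 89.9% for Col-0. Its 3 values below 50%, 42.7 to 45.9%, each came from 1 replicate of a pair. The peaks over *WRKY27* were weak, with a mean fold enrichment of 1.67 at 3 DAI and 1.59 at 1 DAI. The difference between times was -12.3 percentage points (exact permutation p = 0.287), and -19.2 (p = 0.0185) without *Atsdr4l-5* 1 DAI replicate 1. *WRKY48*, a negative regulator of basal resistance, was covered to 93.8 and 96.8% in *Atsdr4l-4* at 3 DAI and to 100% in the other 4 libraries of that time. At 1 DAI coverage was 94.7 and 96.1% for *Atsdr4l-4*, 94.0 and 96.3% for *Atsdr4l-5*, and 100 and 100% for Col-0. Its upstream kb was not covered in any of the 4 *Atsdr4l-4* libraries. In *Atsdr4l-5* it was covered to 84.2 and 81.4% at 3 DAI and not at all at 1 DAI. Col-0 had 100 and 86.9% at 3 DAI and 82.8 and 65.8% at 1 DAI. *WRKY9* was covered to 80.0 to 87.1% in *Atsdr4l* and 70.2 and 70.6% in Col-0 at 3 DAI, and to 66.4 to 86.6% in *Atsdr4l* and 80.8 and 68.5% in Col-0 at 1 DAI, where the genotypes overlapped.

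Coverage cannot rise in a gene that is already covered, so the height of the mark was compared among the 4890 genes marked in all 12 libraries, 35 of them WRKY genes. The measure is relative enrichment, the log2 of the fold enrichment of the peaks over the body, weighted by the bases they cover, over the median of these 4890 genes in the same library. It was chosen after coverage had been seen. A fold is averaged by the peak caller over the whole peak, so a wider peak can lower it. With the exact permutation test of time within genotype, adjusted over the 4890 genes, 5 WRKY genes were higher at 3 DAI (14.3% of the 35, against 12.1% of all 4890) and 10 were lower (28.6%, against 11.8%). The median difference was -0.07 (log2) over the 35 and -0.01 over the 4890. All 15 had the smallest adjusted p the test can give here, 0.0387. The calls sit at the floor of the test, so that leaving out 1 library can remove all of them together. No gene at all passed without *Atsdr4l-4* 1 DAI replicate 1, *Atsdr4l-4* 1 DAI replicate 2 or *Atsdr4l-5* 1 DAI replicate 2. There the smallest adjusted exact permutation p was 0.0553, 0.0509 and 0.0538, and the smallest unadjusted p was still 0.00926. With 1 library left out, the relative difference was -0.34 to -0.289 in *WRKY65* and 0.105 to 0.172 in *WRKY12*.

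The 5 members higher at 3 DAI were *WRKY8*, *WRKY12*, *WRKY56*, *WRKY62* and *WRKY75*. *WRKY75*, a regulator of phosphate starvation responses and senescence, had a fold enrichment of 2.59 and 3.24 for *Atsdr4l-4*, 2.82 and 3.07 for *Atsdr4l-5*, and 2.91 and 2.72 for Col-0 at 3 DAI. At 1 DAI it had 1.97 and 2.08 for *Atsdr4l-4*, 1.85 and 2.32 for *Atsdr4l-5*, and 2.06 and 2.44 for Col-0. Fold values did not overlap between the times, and the relative enrichment differed by 0.28 (log2). *WRKY8*, which acts in defence and salt stress, had 2.66 to 3.51 at 3 DAI and 2.16 to 2.53 at 1 DAI, a relative difference of 0.19. *WRKY12*, a repressor of secondary wall formation in stem pith, had the highest fold of these members, 3.65 to 4.29 at 3 DAI and 2.87 to 3.52 at 1 DAI, a relative difference of 0.14.

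The 10 members lower at 3 DAI relative to other marked genes were *WRKY14*, *WRKY30*, *WRKY36*, *WRKY38*, *WRKY49*, *WRKY58*, *WRKY59*, *WRKY61*, *WRKY65* and *WRKY72*. *WRKY65*, in IIe, had a fold enrichment of 2.48 and 2.36 for *Atsdr4l-4*, 2.39 and 2.56 for *Atsdr4l-5*, and 2.28 and 2.14 for Col-0 at 3 DAI, against 2.44 and 2.82 for *Atsdr4l-4*, 2.61 and 2.62 for *Atsdr4l-5*, and 2.62 and 2.56 for Col-0 at 1 DAI. Its relative enrichment differed by -0.31 (log2), and the times did not overlap on that scale. *WRKY61*, in IIb, averaged a fold of 2.54 at 3 DAI and 2.72 at 1 DAI, a relative difference of -0.27. *WRKY30*, which is induced by pathogens and oxidative stress, averaged 1.89 at 3 DAI and 1.97 at 1 DAI, a relative difference of -0.22. The median peak over *WRKY30* measured 7071 bp at 3 DAI and 4952 bp at 1 DAI. Peaks were also wider at 3 DAI over *WRKY49*, *WRKY58* and *WRKY59*. They were slightly narrower over *WRKY14*, *WRKY36*, *WRKY38*, *WRKY61*, *WRKY65* and *WRKY72*. The part of peak width in these differences was not tested. In *WRKY14*, *WRKY38*, *WRKY49*, *WRKY58* and *WRKY59* the mean fold itself was higher at 3 DAI, but by less than the median of the 4890 genes, as in *WRKY38*, a negative regulator of basal defence, with 2.31 at 3 DAI and 2.23 at 1 DAI. Between *Atsdr4l* and Col-0 no gene of the 4890 passed an adjusted p of 0.05 by the same exact permutation test, with 593 genes, 4 of them WRKY genes (*WRKY57*, *WRKY58*, *WRKY61* and *WRKY68*), at an unadjusted p under 0.05.

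**Figure D5:**
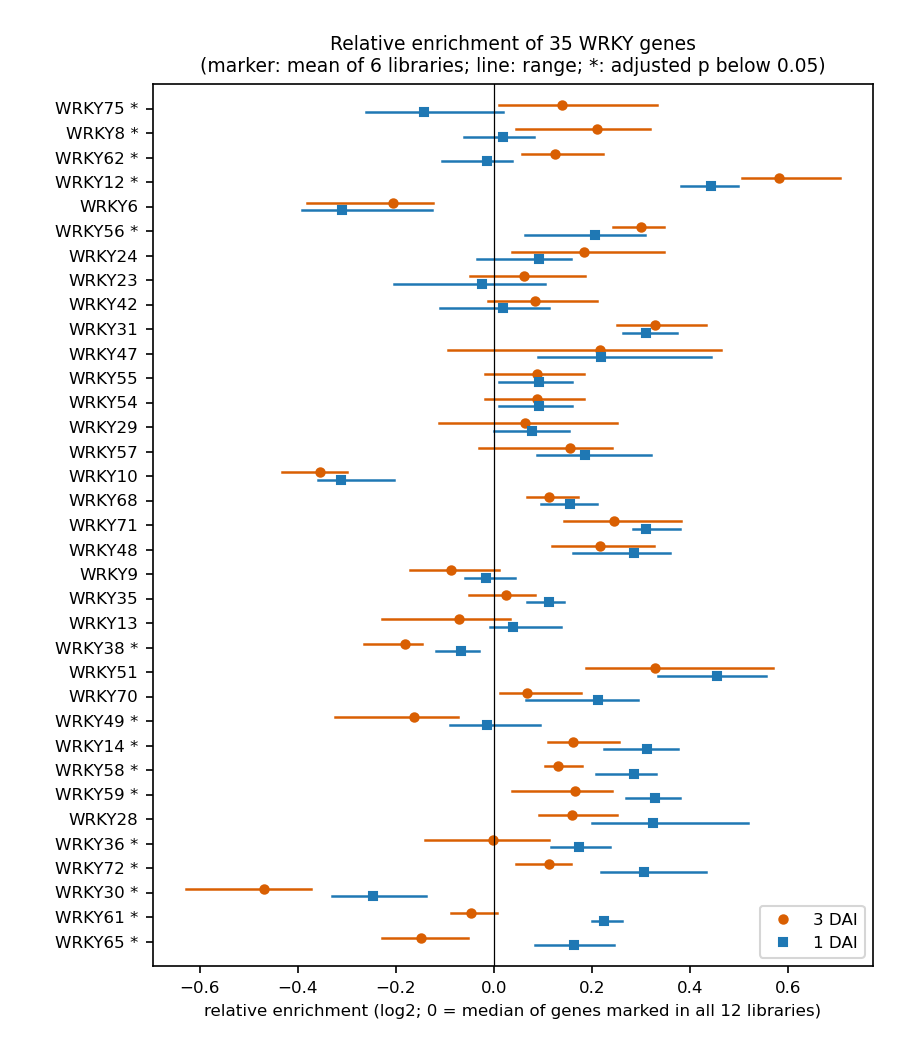
Relative enrichment (x axis, log2, 0 being the median of the 4890 genes marked in all 12 libraries) of the 35 WRKY genes marked throughout, ordered by the difference between the times; circles are means over the 6 libraries of 3 DAI, squares over those of 1 DAI, lines run between the lowest and highest library, and asterisks mark an adjusted p of 0.0387. *WRKY75* is at the top with a difference of 0.28 and *WRKY65* at the bottom with -0.31.

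The members were then read by their roles. Of the whole family, 52.2% was marked in all 12 libraries and 38.8% in none, against 17.8% and 70.6% of all protein-coding genes. The role lists are short and share members, so their counts are a description. Of 22 WRKYs known from defence, 10 were marked in all 12 libraries, 11 in none and 1, *WRKY40*, in some. The marked ones include *WRKY70* and *WRKY54*, which act in salicylic acid signalling, *WRKY38* and *WRKY62*, which are induced by salicylic acid, and *WRKY29*, which acts below pattern receptors. The unmarked ones include *WRKY33*, the main activator of camalexin synthesis, *WRKY46* and *WRKY53*, and *WRKY22*, which acts beside *WRKY29*. *WRKY33* and *WRKY53* had no base of the body in a peak in any library, and *WRKY70* was covered to 100% in all 12.

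Of 8 WRKYs known from ABA responses and seeds, 7 were members. *WRKY6* was marked in all 12 libraries and *WRKY41*, *WRKY2*, *WRKY18* and *WRKY60* in none, while *WRKY40* and *WRKY43* varied as described. *WRKY41*, an activator of ABI3 and of seed dormancy, and *WRKY2*, a regulator of germination under ABA, had no body base in a peak in any library. *WRKY6*, which acts in ABA signalling, senescence and the repression of PHO1, was covered to 89.1% in *Atsdr4l-4* replicate 1 and to 100% elsewhere at 3 DAI. At 1 DAI it was covered to 97.1 and 100% for *Atsdr4l-4*, 100 and 100% for *Atsdr4l-5*, and 92.8 and 100% for Col-0. The peak over it was wider at 3 DAI, with a median of 7292 bp against 3417 bp at 1 DAI.

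All 4 WRKYs known from phosphate starvation carried the mark in most libraries, *WRKY6*, *WRKY42* and *WRKY75* in all 12 and *WRKY45* in 11. Of the whole family 52.2% was marked in all 12. *WRKY6*, *WRKY75* and *WRKY45* are also counted among the senescence WRKYs. *WRKY75* was covered to 87.3 to 100% at 3 DAI and 67.3 to 100% at 1 DAI. Of 9 senescence WRKYs, 6 were marked in all 12, *WRKY22* and *WRKY53* in none and *WRKY45* in 11. Of 9 WRKYs known from development, 8 were members and 6 of them marked in all 12: *WRKY10*, which acts in the endosperm, *WRKY12* and *WRKY13* in the stem, *WRKY71* in shoot branching, *WRKY28* and *WRKY23*. *WRKY2* and *WRKY34*, which act in pollen, were unmarked. *WRKY23*, which acts in auxin transport in roots, was covered to 76.9 and 100% for *Atsdr4l-4*, 77.7 and 100% for *Atsdr4l-5*, and 100 and 100% for Col-0 at 3 DAI. The 1 DAI libraries had 75.8 and 78.1% for *Atsdr4l-4*, 100 and 74.3% for *Atsdr4l-5*, and 79.3 and 77.3% for Col-0, so its values took 1 of 2 levels in a way that overlapped between times.

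Genes around the WRKYs were read in the same way. Of 15 genes of salicylic acid synthesis and signalling, 6 were marked in all 12 libraries, among them SARD1, CBP60G and PR1, and 7 in none, among them the synthesis gene EDS16 and the receptor NPR1. Of all protein-coding genes 17.8% were marked in all 12 and 70.6% in none. In all libraries of 3 DAI 1 of the 15 was higher, where 4.93% of all genes were: SARD1, an activator of EDS16, was covered to 80.1 to 84.2% at 3 DAI and 55.4 to 69.5% at 1 DAI. SARD1 also lay below both Col-0 libraries in *Atsdr4l* at 3 DAI, with 80.1 to 82.1% against 84.1 and 84.2% in Col-0, and so did FMO1, an enzyme of systemic immunity, with 93.9 to 94.7% against 95.2 and 95.3% (2 of 15, where 2.98% of all genes lay below). PBS3, a synthesis enzyme, lay above both Col-0 libraries in *Atsdr4l* at 1 DAI, with 23.9 to 38.0% against 15.8 and 12.1% (1 of 15, where 1.76% of all genes lay above). All 5 genes of camalexin synthesis, the pathway driven by the unmarked *WRKY33*, were marked in all 12 libraries, against 17.8% of all genes. None separated the times, and PAD3 lay above both Col-0 libraries in *Atsdr4l* at 1 DAI (1 of 5, where 1.76% of all genes lay above). Of 7 MAP kinases and VQ partners of WRKY proteins, none was marked in all 12 libraries, against 17.8% of all genes, and 3 were higher at 3 DAI by non-overlap, against 4.93%. SIB2, a VQ partner of *WRKY33*, was covered to 78.2 to 100% at 3 DAI and to 0% in all 6 libraries of 1 DAI, so it was marked at 3 DAI and unmarked at 1 DAI. Its paralog SIB1 was covered to 99.6 to 100% at 3 DAI and 35.1 to 68.0% at 1 DAI, and the kinase MPK4 to 9.90 to 24.5% and 4.91 to 9.70%. Each of the 3 had the smallest possible exact permutation p, 0.00926, and none passed adjustment over all genes.

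Of 7 genes known as targets of WRKYs, PHT1;1 and SAG12 were marked in all 12 libraries (17.8% of all genes). FRK1 and ABI5 were marked in none (70.6% of all genes), and ABI4, ABI3 and PHO1 in some. PHO1, a phosphate exporter repressed by *WRKY6* and *WRKY42*, was covered to 70.6 to 79.5% at 3 DAI and 26.4 to 59.2% at 1 DAI. ABI3, a master regulator of seed maturation, was covered to 12.4 and 39.6% for *Atsdr4l-4*, 25.3 and 30.0% for *Atsdr4l-5*, and 97.7 and 99.6% for Col-0 at 3 DAI, and to 0% in all 6 libraries of 1 DAI. PHO1 and ABI3 were the 2 of 7 genes higher in all libraries of 3 DAI (4.93% of all genes), and ABI3 was the 1 gene of this list in which the 4 *Atsdr4l* libraries lay below both Col-0 libraries at 3 DAI (2.98% of all genes).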

How the data were processed

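H3K27me3 ChIP-seq libraries of seedlings were processed by the authors, who called broad peaks in each library separately with MACS2 against a joined mock IgG control. Versions 2.2.6 and 2.2.7.1 of MACS2, fastp 0.23.4, SAMtools 1.6 and bcl2fastq 2.19 are named in the submitters' processing notes. Each deposited list gives a peak's position, its score, its fold enrichment over the control as a linear ratio, and -log10 of its p and q values, as the authors' peak caller wrote them. No read counts are given, so depth is unknown and no counting interval can be had.

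Here peaks were joined to TAIR10.1 RefSeq genes by coordinate, and the percent of each gene body in peaks was computed with Python 3.11.15, numpy 2.4.6 and pandas 2.3.3. Groups followed the labels, and 3 mock IgG samples and 1 Col-0 sample of another treatment were not analysed here. Coverage was compared by exact permutation within genotypes or time points, with Benjamini-Hochberg adjustment over all protein-coding genes, and with limma 3.58.1 in R 4.3.3 as an alternative. As a check of the coverage code, 200 genes were given a peak over most of the body in simulated 3 DAI libraries only. All 200 came out as switched on, which their placement largely fixed, with 5 false switches. The simulated libraries were copies of a real list with its edges moved at random. They lacked the differences between real replicates, so this check says nothing of how the tests perform. Named genes were the members and pathway genes whose groups did not overlap, up to 12 per direction in time and 4 between genotypes, those that switched state, those nearest the threshold, and 9 set members of the role lists; others in the text, such as *WRKY8* or *WRKY65*, were named after their values were seen. Members, lists and tests were chosen with earlier results of these data known, and the subgroup list, relative enrichment and sequence comparisons were added after coverage had been seen. Replicate numbers did not pair the samples. Promoters and heptads were cut from the RefSeq genome.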

Additional observations from a re-analysis of the deposited data

Results flagged for a closer look

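Among 28 groups of 4 *Atsdr4l* libraries over 13 genes, 5 held a library far from the other 3 by Dixon's ratio at its 95% critical value. Chance gives such a gap in about 1 in 20 groups, but 3 of the 5, in *WRKY43* and *WRKY6*, had the other 3 libraries tied at 100%, where any departure is picked out and that rate does not apply. *WRKY27* had 42.8% of its body in peaks in *Atsdr4l-4* 3 DAI replicate 2, and *WRKY43* had 97.2% in *Atsdr4l-4* 3 DAI replicate 1 where the other 3 had 100%. *WRKY6* had 89.1% in *Atsdr4l-4* 3 DAI replicate 1 and 97.1% in *Atsdr4l-4* 1 DAI replicate 1, below the 100% of the other 3 *Atsdr4l* libraries of each time. *WRKY23* had 100.0% in *Atsdr4l-5* 1 DAI replicate 1, above the other 3.

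*WRKY74* moved in opposite directions in the alleles. Its coverage differed by -26.6 percentage points between 3 and 1 DAI in *Atsdr4l-4*, with both 3 DAI libraries below both of 1 DAI, and by 24.8 in *Atsdr4l-5*, with both above. The difference between the alleles was not tested. It rests on weak peaks, with a mean fold enrichment of 1.54 at 3 DAI and 1.52 at 1 DAI. With peaks of at least 2-fold enrichment the difference between times over all genotypes was 0.0.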

How the results depend on the processing

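The 1.0 more WRKY genes marked at 3 than at 1 DAI was 1.67 with peaks of at least 2-fold enrichment and 0.833 to 1.17 with 1 library left out. Pairing libraries by replicate number, the replicate block, leaves this mean at 1.0 by construction, so it is no check of it. The excess in *Atsdr4l* over Col-0 at 1 DAI (1.0) was 0.25 with 2-fold peaks, 2.0 with a 25% threshold and 0.5 to 1.5 with 1 library left out. At 3 DAI (0.25) it was -0.75 with -log10 q of at least 5, 1.25 with 2-fold peaks, -0.75 with the upstream kb added, -0.5 in *Atsdr4l-4* alone, 1.0 in *Atsdr4l-5* alone and 0.0 to 0.667 with 1 library left out. Non-overlap counts at 1 DAI (2 higher, 2 lower) were 1 and 1 with the q limit and 1 and 1 with 2-fold peaks. With 1 library left out the higher count was 2 to 4, with 4 without Col-0 1 DAI replicate 2, and the lower count stayed 2. At 3 DAI (1 higher, 1 lower) 2-fold peaks gave 2 and 0, *Atsdr4l-4* alone 2 and 3, *Atsdr4l-5* alone 2 and 2, and the upstream kb 4 lower. Leaving out 1 library gave 1 to 2 higher and 1 to 3 lower, with 2 and 3 without Col-0 3 DAI replicate 2. Genes apart in time (3 higher, 0 lower) were 2 higher with the q limit, 2 with 2-fold peaks and 3 to 4 with 1 library left out, and 0 lower in each case. The share of all genes was not computed for any of these changed settings. Groups of fewer libraries separate more easily, so counts from a single allele or with 1 library left out cannot be set against the main ones.

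limma called 5 WRKY genes in time where the permutation test called 0. Relative enrichment calls (5 higher, 10 lower) were 0 and 0 with the replicate block, whose smallest adjusted p is 0.102, and 0 to 5 and 0 to 10 with 1 library left out. With limma the calls were 4 higher and 14 lower of the 35. Limma also called more of all genes, 1775 of the 4890 in either direction against 1169 by the permutation test, split nearly evenly between higher and lower. The share of the 35 called higher by limma was thus below that of all genes, and the share called lower above it. *WRKY27* turned to 13.0 percentage points with the q limit, against -12.3 and a range of -19.2 to -5.32 with 1 library left out (-19.2 with an exact permutation p of 0.0185 when *Atsdr4l-5* 1 DAI replicate 1 was left out, -5.32 when its replicate 2 was), and *WRKY74* (5.02) ranged from -2.49 without Col-0 3 DAI replicate 2 to 12.5 without Col-0 3 DAI replicate 1. By the exact permutation test, *WRKY43* gave 66.7 (p = 0.0833) and *WRKY40* -36.6 (p = 0.25) with the q limit, and *WRKY40* -27.2 (p = 0.5) with 2-fold peaks. *WRKY20* gave 10.7 (p = 0.0278) with the q limit and 0.0 with 2-fold peaks, and *WRKY66* 45.3 with either, all by the same exact permutation test. The differences of *WRKY27*, *WRKY43* and *WRKY74* were also 0.0 with 2-fold peaks. The causes were not tested. The exact permutation test of 1 gene within a time point cannot pass 0.05 with 2 Col-0 libraries.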

Other observations

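The upstream kb of *WRKY28*, which acts in the embryo sac and in defence, was covered to 34.4 and 100% for *Atsdr4l-4*, 24.4 and 25.9% for *Atsdr4l-5*, and 100 and 100% for Col-0 at 3 DAI. At 1 DAI coverage was 18.1 and 13.2% for *Atsdr4l-4*, 0 and 29.1% for *Atsdr4l-5*, and 32.0 and 8.30% for Col-0. The upstream kb of *WRKY2* held peaks in 1 library of 3 DAI, with 46.5%, and in 5 of 1 DAI, with 1.90 to 39.8%. ABI4, an ABA regulator bound by *WRKY40*, was covered to 100 and 0% for *Atsdr4l-4*, 100 and 0% for *Atsdr4l-5*, and 56.6 and 100% for Col-0 at 3 DAI, and to 100% in all 6 libraries of 1 DAI. PAD3, the last enzyme of camalexin synthesis, was covered to 70.6 to 100% in *Atsdr4l* and 59.3 and 53.2% in Col-0 at 1 DAI, where 1.76% of all genes lay above both Col-0 libraries. These genes were picked after their values were seen.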
